A study of Mus musculus with 21 samples.

Results

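Hdac5 and Hdac7, which encode class IIa histone deacetylases, were followed across 21 Affymetrix Mouse Gene 1.0 ST arrays of mouse thymocytes. Both were found by their gene symbols in the tables of changed genes that the authors deposited, and each had 1 probe set (10391577 for Hdac5 and 10432006 for Hdac7). They were 2 of 2113 genes that could be named among 28921 probe sets tested. A gene could be named only if the authors had listed it for some comparison, and of 18 histone deacetylases and sirtuins looked for, Hdac5 and Hdac7 were the only 2 named. The choice of the genes itself used no measured value, but naming them rested on the authors' lists. Hdac7 was listed only for HDAC7-VP16, and Hdac5 for the knockout, HDAC7-VP16 and OT-2. Their results in those comparisons are therefore not independent of the listing, which came from the same arrays. The results of both genes were known beforehand, as were those of the gene lists used below.

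Each array carried total RNA of CD4 CD8 double-positive thymocytes purified by flow sorting, the stage at which developing T cells are tested for the specificity of their receptor. All mice were C57 Bl/6 and 3 to 6 weeks old, and each group with a transgene or a deletion had 3 biological replicates. The groups were OT-2 mice that also carried an HDAC7 deltaP transgene and received peptide, OT-2 mice that received peptide, untreated OT-2 mice, HDAC7 knockout mice, HDAC7-VP16 transgenic mice, and 6 wild-type mice in sets numbered 1 to 3 and 4 to 6. The peptide is an agonist of the OT-2 T cell receptor and was injected into the peritoneum 3 hours before harvest. The genotype label of the deltaP arrays names only the OT-2 transgene, and deltaP stands in their titles. The labels do not say which promoter drives the transgenes or which cells lost HDAC7.

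Class IIa histone deacetylases are large nuclear proteins with little enzymatic activity of their own. They bind MEF2 transcription factors through their amino-terminal part, bring in corepressor complexes and so keep MEF2 target genes silent. Kinases that act downstream of the T cell receptor, such as protein kinase D, phosphorylate them, after which 14-3-3 proteins hold them in the cytoplasm and the targets are released. HDAC7 is the family member best known from double-positive thymocytes, where it represses Nr4a1 (Nur77), a gene tied to the death of self-reactive cells. In muscle and heart, HDAC5 is regulated in the same way. Fusing HDAC7 to VP16, a strong viral activation domain, turns the repressor into an activator of the genes it binds.

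The promoters of both genes are shown because the expression changes below concern their transcripts and MEF2 is the factor both proteins are known to bind. The sequences are RefSeq promoter windows of build GRCm38.p6, from 250 bases before a transcription start to 50 after it, written in the direction of the gene, with a match to the MEF2 consensus in capitals.
Hdac5, chr11:102230123-102230422, minus strand: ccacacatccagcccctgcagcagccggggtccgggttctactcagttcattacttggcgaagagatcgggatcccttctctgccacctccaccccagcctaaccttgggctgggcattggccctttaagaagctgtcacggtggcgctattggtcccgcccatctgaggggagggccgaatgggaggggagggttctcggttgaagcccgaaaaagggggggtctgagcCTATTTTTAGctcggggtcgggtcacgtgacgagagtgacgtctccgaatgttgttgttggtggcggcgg
Hdac7, outermost start, chr15:97844453-97844752, minus strand: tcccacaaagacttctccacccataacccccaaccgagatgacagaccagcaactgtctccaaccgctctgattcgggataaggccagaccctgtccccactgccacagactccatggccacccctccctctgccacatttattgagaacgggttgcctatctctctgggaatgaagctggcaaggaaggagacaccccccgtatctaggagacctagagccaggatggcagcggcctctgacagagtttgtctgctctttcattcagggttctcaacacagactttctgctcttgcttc
The Hdac5 window held 1 match, CTATTTTTAG, at chr11:102230183-102230192, which lies 11 to 20 bases before the start. The 4 windows listed for Hdac7 held 0 matches. The consensus equals its own reverse complement, so that a match counts for both strands. It occurred in 3.19% of 32851 promoter windows, or in 3.70% of 27025 genes. A match is a description of these letters. It was searched for after the Hdac5 sequence had been seen, and no binding was measured on these arrays. The share of G and C was 60.7% in the Hdac5 window and 54.7% in the Hdac7 window shown, and 60.7%, 73.7% and 65.7% in the other Hdac7 windows.

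Values are log2 RMA signals as deposited, and every change is a difference of group means on that scale, with the standard error (SE) of a limma fit on the arrays compared. A gene was called changed when its p, adjusted by Benjamini and Hochberg's method over all 28921 probe sets, was under 0.05. The deposited columns fell into 4 blocks by their decimals and spread, and per the design text RMA was run separately for the sets of arrays to be compared. The knockout, peptide-injected OT-2 and wild-type 1 to 3 arrays shared a block, as did the HDAC7-VP16 and wild-type 4 to 6 arrays, while OT-2 and deltaP each had a block of their own. Block and group therefore cannot be told apart in any comparison with untreated OT-2 or deltaP. Array medians lay between 6.01 and 6.26, and pairs of arrays of the same group correlated across probe sets at r from 0.987 to 0.997. Among the named markers of the sorted stage, Cd4, Cd8b1 and Rag1 were high on every array, with group means from 11.05 to 12.06, 12.23 to 13 and 12.41 to 13.70. Themis ran from 10.78 to 12. Rag2, Ptcra and Tcra were lower or varied more between groups, with group means from 7.3 to 8.13, 6.68 to 9.36 and 8.65 to 11.61. The purity of the sort was not tested.

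Hdac7 was the more strongly detected of both genes on every array, but probe sets of different genes differ in how brightly they report, so that their levels are given separately. Within an array, Hdac5 ranked on average between the 69.7 and 87.5 percentile of all probe sets, depending on the group, and Hdac7 between the 94.9 and 97.7 percentile. Arranged from low to high, Hdac5 averaged 7.79 ± 0.07 in deltaP, 7.85 ± 0.15 in wild type 4 to 6, 7.96 ± 0.20 in wild type 1 to 3, 8.33 ± 0.10 in OT-2, 8.35 ± 0.20 in HDAC7-VP16, 8.37 ± 0.06 in peptide-injected OT-2 and 9.21 ± 0.02 in knockout thymocytes (SD, n = 3 each). The arrays of the first 3 of these groups overlapped, as did those of OT-2, HDAC7-VP16 and peptide-injected OT-2, and the knockout arrays lay above all others.

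Hdac7 was ordered differently. It averaged 10.40 ± 0.18 in deltaP, 10.56 ± 0.32 in peptide-injected OT-2, 10.64 ± 0.04 in OT-2, 10.84 ± 0.03 in wild type 4 to 6, 10.96 ± 0.02 in knockout, 11.28 ± 0.08 in HDAC7-VP16 and 11.30 ± 0.26 in wild type 1 to 3 thymocytes (SD, n = 3 each). Peptide-injected OT-2, whose arrays spread the most, overlapped deltaP, OT-2 and wild type 4 to 6, and the HDAC7-VP16 arrays lay within the range of wild-type arrays 1 to 3. Both wild-type sets, which lie in different blocks, stood further apart for Hdac7 than HDAC7-VP16 and its own controls did. The order also depended on the scale: by percentile within the array, OT-2 (95.5) stood above wild type 4 to 6 (95.1), although its log2 signal was lower.

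**Figure D1:**
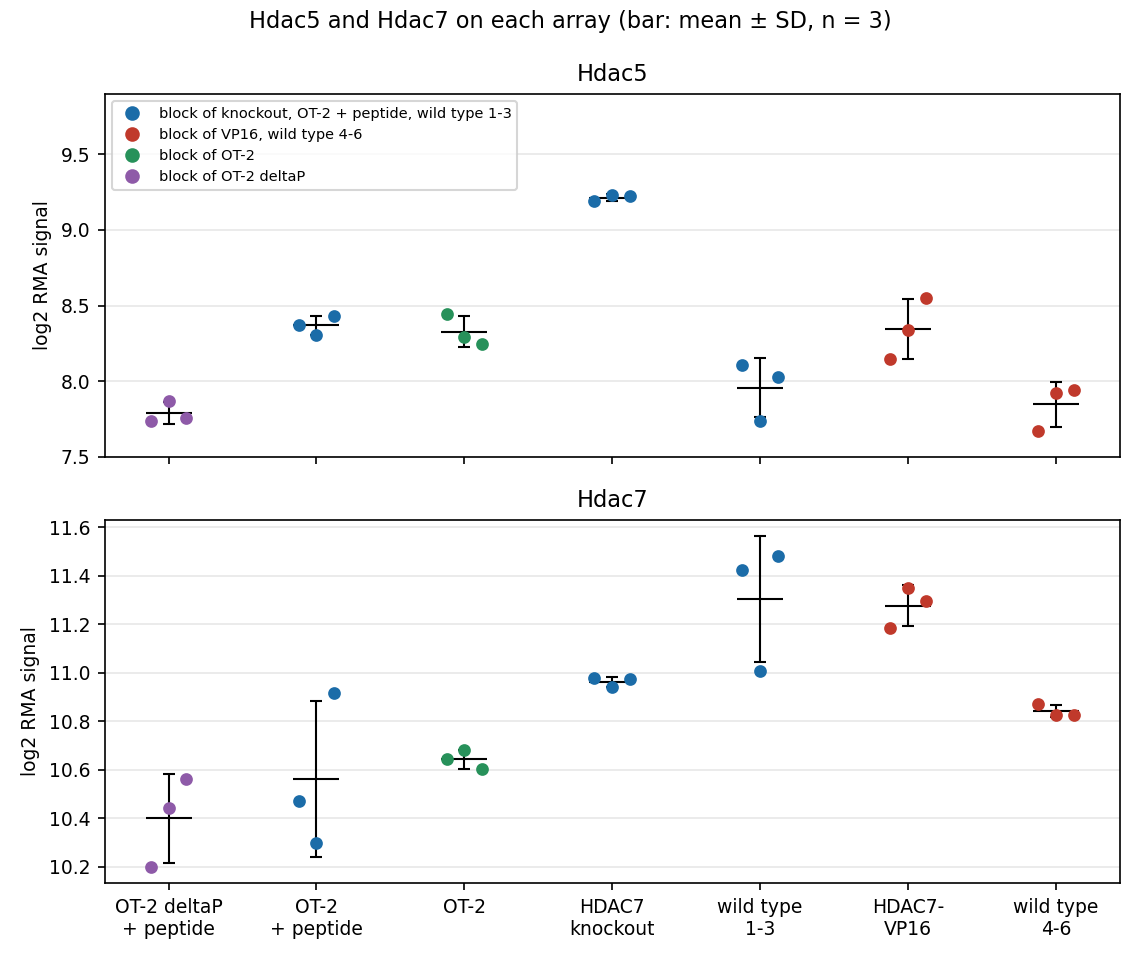
Log2 RMA signal of Hdac5 (upper panel) and Hdac7 (lower panel) on each of the 21 arrays by group, coloured by normalization block, with bars for the mean and SD of 3 arrays; neither axis starts at 0. The 3 knockout arrays lie above 9.1 for Hdac5, over every other array, whereas for Hdac7 wild type 1 to 3 and HDAC7-VP16 are the highest groups.

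The knockout comparison asks what changes when thymocytes lack HDAC7. Hdac5 rose: it had 9.19, 9.23 and 9.22 in knockout thymocytes, against 8.11, 7.74 and 8.03 in wild type 1 to 3. The lowest knockout array was above the highest wild-type array, and the knockout arrays lay close together. The change was 1.25 ± 0.12 (SE, 95% interval 0.98 to 1.53), a 2.39-fold rise with adjusted p = 0.00333. It ranked 43 by p and 95 by size among 28921 probe sets. In this comparison 0.802% of probe sets were called, 0.439% as higher and 0.363% as lower. With the replicate number as a block, because same-numbered knockout and wild-type arrays deviated together, the adjusted p was 0.00528.

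The Hdac7 probe set itself had 10.98, 10.94 and 10.97 in knockout thymocytes, against 11.42, 11.01 and 11.48 in wild type 1 to 3. All 3 knockout arrays were lower than all 3 wild-type arrays, narrowly so for wild-type array 2. The difference was -0.34 ± 0.14 (95% interval -0.66 to -0.02), or 0.790 of the wild-type signal, and did not pass (unadjusted p = 0.0390, adjusted p = 0.664). With all 6 wild-type arrays as control, which lie in different blocks, it was -0.11 (adjusted p = 0.739). A probe set of this array type sums probes spread along a transcript. Neither the probes' positions nor the deleted part of the gene were used here, so this value does not check the genotype, which rests on the labels. The authors' deposited table gave a ratio of 2.39 with a q value of 0% for Hdac5 and of 0.790 with a q value of 60.2% for Hdac7 in this comparison.

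Other markers moved with the rise of Hdac5 in the knockout, and their part in it was not tested. Of 13 double-positive markers, 7 were named, again only genes the authors listed from these arrays, so that setting them beside all probe sets is a description. All 7 had lower means in knockout thymocytes, with a median change of -0.50 against -0.02 over all probe sets, and 1 of them fell (Ptcra, the pre-T cell receptor alpha chain, -1.11 ± 0.12, adjusted p = 0.00554). Their mean level per array ran from 10.09 to 10.20 in knockout and from 10.49 to 10.69 in wild type 1 to 3. Itgam, the only named one of 6 myeloid markers, rose by 0.89 ± 0.10 (adjusted p = 0.00767), with 7.59 to 7.65 in knockout and 6.60 to 6.81 in wild type. Cd79b was the only named one of 6 B cell markers and Gzma the only one of 5 natural killer cell markers, and neither passed (-0.60, adjusted p = 0.280, and 1.58, adjusted p = 0.187). In such sorted populations, a shift in which cells were present and a change per cell cannot be told apart. None of 4 erythroid markers looked for was named.

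HDAC7-VP16 mice address what happens when the repressor is turned into an activator. Hdac7 had 11.19, 11.35 and 11.30 in HDAC7-VP16 thymocytes, against 10.87, 10.83 and 10.83 in wild type 4 to 6. The groups did not overlap, and the wild-type arrays were nearly equal. Hdac7 rose by 0.44 ± 0.07 (95% interval 0.28 to 0.59), or 1.35-fold, with adjusted p = 0.0353, in a comparison where 1.42% of probe sets were called. Of the 411 calls, 200 (0.692% of probe sets) were higher and 211 (0.73%) lower, a split that moved to 183 and 122 after quantile normalization and to 184 and 390 after centring each array on its median. The call was lost when any array but HDAC7-VP16 replicate 1 was left out (adjusted p from 0.0784 to 0.148), while the change itself stayed between 0.40 and 0.48. It was also lost with all 6 wild-type arrays as control, where the change was 0.20 (adjusted p = 0.550). That control joins arrays of different blocks, so this value also takes in any difference between blocks. Hdac7 could be named only through the authors' list for this same comparison, so the call is not independent of that list. Whether the transgene's own transcript is read by this probe set was not tested.

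Hdac5 had 8.15, 8.34 and 8.55 in HDAC7-VP16 thymocytes, against 7.67, 7.92 and 7.94 in wild type 4 to 6. These groups did not overlap either, but the arrays within each spread more widely. The difference of 0.50 ± 0.12 (95% interval 0.23 to 0.77) did not pass (unadjusted p = 0.00269, adjusted p = 0.0703), although it did without HDAC7-VP16 replicate 1 (0.60, adjusted p = 0.0449). The authors' deposited table listed a ratio of 1.41 and a q value of 3.70% for Hdac5, and of 1.35 with a q value of 0.560% for Hdac7. Among cell markers, Il2ra and Dtx1, which mark the earlier double-negative stage, rose (1.18 ± 0.21, adjusted p = 0.0446, and 0.69 ± 0.13, adjusted p = 0.0482). The mean level of the 3 named markers of that stage ran from 7.47 to 7.86 in HDAC7-VP16 and from 6.99 to 7.48 in wild type 4 to 6. Dtx1 did not pass after quantile normalization (adjusted p = 0.0520), and Cd44, the third of them, had a change of -0.50 ± 0.10 that passed only after centring (adjusted p = 0.0557 as deposited, 0.0509 after quantile normalization and 0.0346 after centring). Cd69, an activation marker also used for mature thymocytes, fell by 0.89 ± 0.10 (adjusted p = 0.0117). Gzma rose by 1.39 ± 0.08 (adjusted p = 5.61e-04), and the part of these markers in the values of Hdac5 and Hdac7 was not tested.

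The HDAC7-VP16 and knockout effects share no array, and their difference was tested in a fit of 12 arrays. For Hdac7 the HDAC7-VP16 effect exceeded the knockout effect by 0.78 ± 0.16 (95% interval 0.43 to 1.12, adjusted p = 0.0438). For Hdac5 it was smaller by 0.76 ± 0.17 (difference -0.76, 95% interval -1.13 to -0.38), which did not pass (adjusted p = 0.0701). In this test 0.799% of probe sets were called, 0.474% as higher and 0.325% as lower. That is 231 probe sets, 137 higher and 94 lower, against 105 higher and 121 lower after centring, and 633 in all with a block for the knockout pairs. The Hdac7 call was lost after centring (0.70, adjusted p = 0.0539) and with control rows kept (adjusted p = 0.0895). It held in 2 of 12 fits that each left out 1 array, those without wild-type replicate 2 and without HDAC7-VP16 replicate 1, and the difference ran from 0.69 to 0.92 over the 12. For Hdac5 the difference passed after centring (-0.83, adjusted p = 0.0456).

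**Figure D2:**
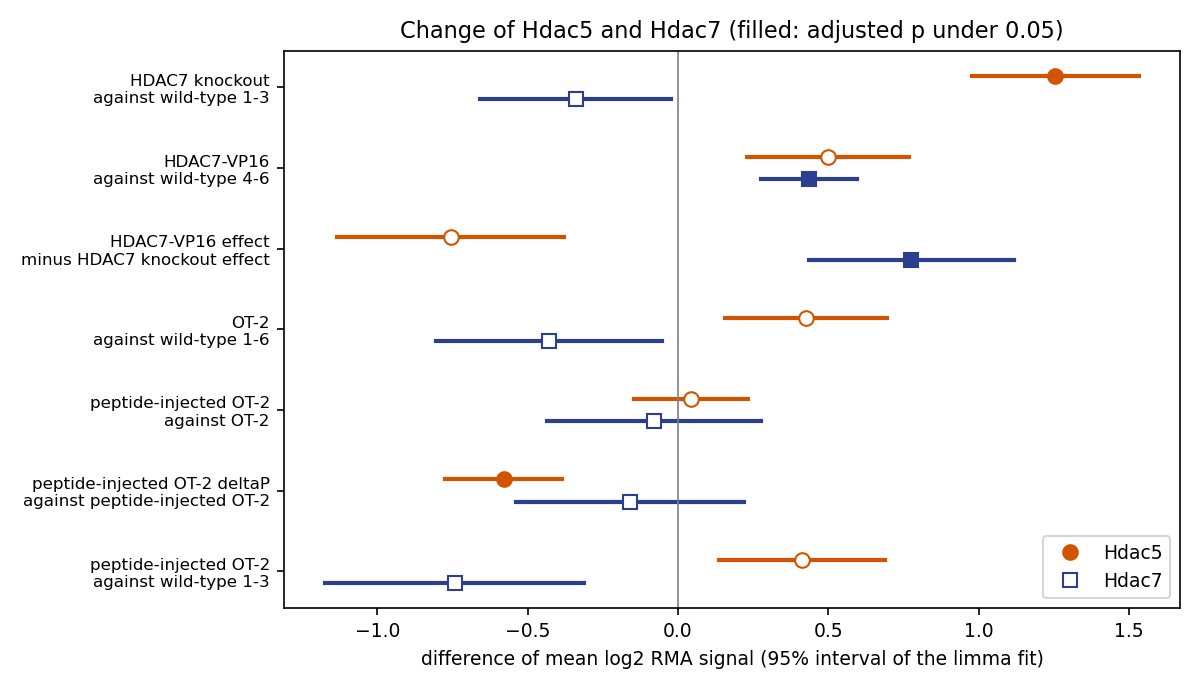
Difference of mean log2 RMA signal for Hdac5 (circles) and Hdac7 (squares) in 7 comparisons, with 95% intervals of the limma fit, filled where the adjusted p was under 0.05. Hdac5 is filled in the knockout (1.25) and deltaP (-0.58) comparisons, and Hdac7 in the HDAC7-VP16 comparison (0.44) and in the difference of both effects (0.78).

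Because a shift of a whole array cancels within it, the log2 difference of Hdac5 minus Hdac7 was also taken array by array. It averaged -1.75 ± 0.04 in knockout and -3.35 ± 0.09 in wild type 1 to 3 thymocytes (SD, n = 3 each), so that the gap between both signals was narrower by 1.595 in the knockout. It averaged -2.93 ± 0.16 in HDAC7-VP16 and -2.99 ± 0.17 in wild type 4 to 6 thymocytes, a difference of 0.06 whose sign changed when wild-type replicate 4 (-0.04) or HDAC7-VP16 replicate 3 (-0.03) was left out. In the block of the knockout, peptide-injected OT-2 thymocytes had -2.19 ± 0.26, 1.15 above wild type 1 to 3. Two-sided exact permutation tests gave p = 0.1 for the knockout, p = 0.6 for HDAC7-VP16 and p = 0.1 for peptide-injected OT-2. They shuffled arrays freely and did not keep same-numbered knockout and wild-type arrays paired, and a paired version was not run. With 3 arrays in each group an exact permutation test of this kind cannot give less than p = 0.1. Those 3 comparisons were the ones tested, none passes at 0.05, and adjustment can only raise the p-values.

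**Figure D3:**
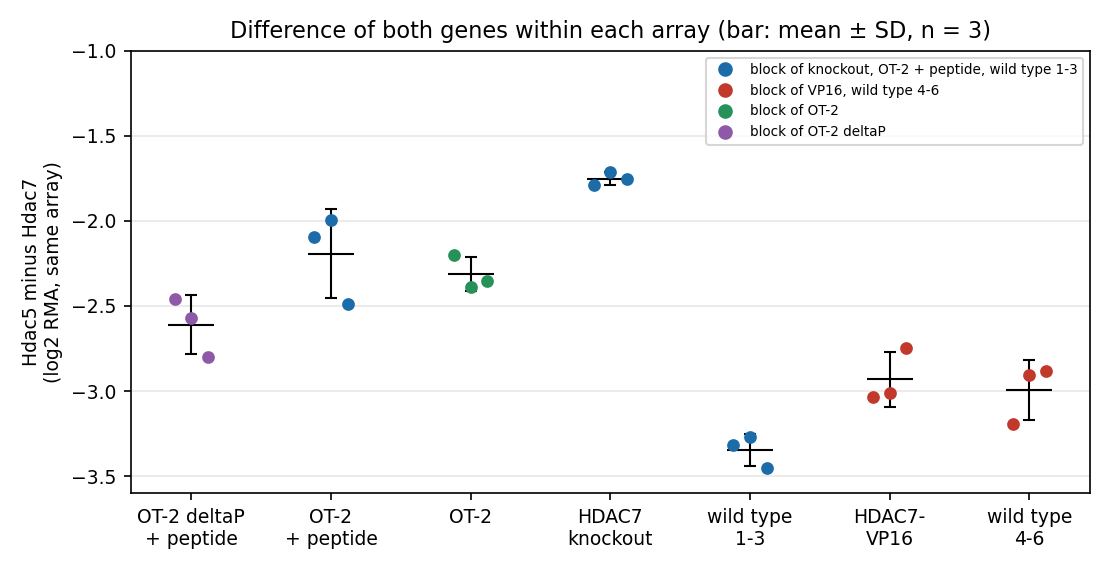
Log2 RMA signal of Hdac5 minus that of Hdac7 on each array by group, coloured by normalization block, with bars for the mean and SD of 3 arrays; the axis does not start at 0. Knockout arrays lie between -1.79 and -1.71 and wild-type arrays 1 to 3 between -3.45 and -3.27, while HDAC7-VP16 overlaps wild type 4 to 6.

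OT-2 thymocytes, which carry a receptor that favours positive selection, were compared with all 6 wild-type arrays as the design text proposes. Of the 7 named double-positive markers, 2 had higher and 5 lower means in OT-2, with a median difference of -0.34, and only Tcra passed, as higher (2.29 ± 0.13, adjusted p = 6.32e-05). Whether the Tcra probe set reads the receptor transgene was not tested. Of the 3 double-negative markers, Il2ra (2.69 ± 0.26, adjusted p = 0.00153) and Dtx1 (1.67 ± 0.26, adjusted p = 0.0136) were higher and Cd44 did not pass (-0.07, adjusted p = 0.922). The part of these markers in the values of Hdac5 and Hdac7 was not tested. Hdac5 had 8.45, 8.29 and 8.25 in OT-2 thymocytes, against 7.67 to 8.11 (median of the 6 at 7.93) in wild type, so that all OT-2 arrays were above all wild-type arrays. The difference was 0.43 ± 0.12 (95% interval 0.16 to 0.69) and did not pass (adjusted p = 0.1003). Here 2.31% of probe sets were called, 1.28% as higher (369) and 1.03% as lower (298), or 279 higher and 482 lower after centring. Hdac7 had 10.64, 10.68 and 10.60 in OT-2 thymocytes, against 10.83 to 11.48 (median 10.94) in wild type, with no overlap. Its difference of -0.43 ± 0.17 (95% interval -0.81 to -0.05) did not pass (adjusted p = 0.226). In the authors' deposited table the ratio was 1.33 with a q value of 0.886% for Hdac5 and 0.716 with a q value of 20.3% for Hdac7.

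Agonist peptide for 3 hours in OT-2 mice, the study's model of negative selection, left both genes without a call by limma, and neither had an unadjusted p under 0.05. Of all probe sets 19.5% were called, 9.35% as higher (2705) and 10.1% as lower (2924), or 2043 higher and 4769 lower after centring. Both groups lie in different blocks. Among the 7 named double-positive markers, 1 had a higher and 6 a lower mean after peptide (median -0.44). Ptcra (-1.01 ± 0.13, adjusted p = 0.00799) and Themis (-0.595 ± 0.12, adjusted p = 0.0211, or 0.0888 after quantile normalization) fell. Cd79b (-0.54 ± 0.08, adjusted p = 0.0102) fell and Cd69 (2.57 ± 0.12, adjusted p = 8.14e-04) rose. The part of these markers in the values of Hdac5 and Hdac7 was not tested. Hdac5 had 8.37, 8.30 and 8.43 in peptide-injected OT-2 thymocytes, against 8.45, 8.29 and 8.25 in OT-2, and the arrays interleaved. The difference was 0.04 ± 0.08, with a 95% interval of -0.15 to 0.23 (adjusted p = 0.736). Hdac7 had 10.47, 10.30 and 10.92 in peptide-injected OT-2 thymocytes, against 10.64, 10.68 and 10.60 in OT-2. The peptide-injected arrays lay on both sides of the OT-2 arrays, and the difference of -0.08 ± 0.15 has a 95% interval of -0.44 to 0.27 (adjusted p = 0.727). The authors' deposited table gave ratios above 1 for both genes here, 1.09 for Hdac5 (q value 38.6%) and 1.14 for Hdac7 (q value 43.8%). The Hdac7 ratio runs opposite to the deposited columns, which do not return the authors' folds for this comparison.

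Within a single block, peptide-injected OT-2 could also be set against wild type 1 to 3, where receptor transgene and peptide differ together. The wild-type arrays are the same as in the knockout comparison. Hdac5 differed by 0.41 ± 0.12 (95% interval 0.14 to 0.69, adjusted p = 0.0885), and all 3 peptide-injected arrays were above all 3 wild-type arrays given above. Hdac7 differed by -0.74 ± 0.19 (95% interval -1.17 to -0.31, adjusted p = 0.0595), again without overlap. Neither passed by limma, although both had an unadjusted p under 0.05, and 5.76% of probe sets were called. Of these, 1009 (3.49%) were higher and 658 (2.28%) lower, or 811 and 805 after centring. Of the 7 named double-positive markers, 2 rose (Tcra and Ptcra) and 4 fell here, and their part was not tested. Whether the Tcra probe set reads the receptor transgene was not tested either. The Hdac7 difference passed without wild-type replicate 2 (-0.89, adjusted p = 0.0479) and without peptide-injected replicate 3 (-0.92, adjusted p = 0.0350).

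The deltaP transgene was examined in peptide-injected OT-2 mice. Hdac5 fell: it had 7.74, 7.87 and 7.76 in deltaP thymocytes, against 8.37, 8.30 and 8.43 in peptide-injected OT-2 thymocytes without it. The groups did not overlap, and the change was -0.58 ± 0.08 (95% interval -0.77 to -0.39), or 0.669 of the level without deltaP, with adjusted p = 0.00885. Here 15% of probe sets were called, 2.12% as higher and 12.9% as lower, and Hdac5 ranked 342 by p. The deltaP arrays form a block of their own, so that transgene and block cannot be told apart here. Their medians were lower, 6.05 on average against 6.25, a shift of -0.19. With each array centred on its median the Hdac5 change was -0.39 (adjusted p = 0.0314), and with quantile normalization it was -0.58 (adjusted p = 0.0183). Cell markers moved in the same comparison, and their part in the fall of Hdac5 was not tested. Of the 7 named double-positive markers, Cd4 (0.64 ± 0.18, adjusted p = 0.0489) and Themis (0.65 ± 0.13, adjusted p = 0.0203), a regulator of T cell receptor signalling, rose, neither of which passed after quantile normalization (adjusted p = 0.166 and 0.0787). Dtx1 fell by 0.65 ± 0.16 (adjusted p = 0.0331, or 0.0590 after quantile normalization), and Cd69 changed by -1.37 ± 0.18 (adjusted p = 0.00758). Over all probe sets the calls split into 612 higher and 3736 lower as deposited, 3634 and 1016 after centring, and 442 and 404 after quantile normalization.

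Hdac7 had 10.20, 10.44 and 10.56 in deltaP thymocytes, against 10.47, 10.30 and 10.92 in peptide-injected OT-2 thymocytes. The groups overlapped, and the difference of -0.16 ± 0.17 (95% interval -0.54 to 0.22) did not pass (adjusted p = 0.517). Its sign turned after centring (0.03) and without peptide-injected replicate 3 (0.02). A transgenic HDAC7 transcript would add to this signal only if the probe set reads it, which was not tested.

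Genes whose pattern was most like that of each deacetylase were sought among the other 2112 named genes. The measure was Pearson's r over the 15 arrays of both blocks that hold more than 1 group, after each array value had the mean of its block subtracted. These r values are descriptions. The arrays share groups, so that a gene that differs between groups in the same order scores high. Every named gene was also one the authors listed. The 15 arrays include those of the knockout, HDAC7-VP16 and peptide-injected OT-2 against wild-type comparisons. Changes of the picked genes there follow in part from the choice and are not separate evidence. Between Hdac5 and Hdac7 themselves r was 0.04.

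The 5 genes most like Hdac5 were Sema4g, a semaphorin (r = 0.97), Trim26, a tripartite-motif protein (0.96), Smarca2, an ATPase of the SWI/SNF chromatin remodeller (0.95), Phlpp1, a phosphatase that acts on AKT (0.94), and Ncoa3, a nuclear receptor coactivator (0.94). Of these, 3 rose in the knockout: Sema4g by 1.4997 (adjusted p = 7.87e-04), Phlpp1 by 1.59 and Trim26 by 0.93 (adjusted p = 0.00895 for each). Over all probe sets 0.439% were called higher there and 0.363% lower. Smarca2 (0.70, adjusted p = 0.0608) and Ncoa3 (0.57, adjusted p = 0.0714) did not pass. Sema4g also rose in HDAC7-VP16 thymocytes, by 0.64 (adjusted p = 0.0237), and had 8.27, 8.04 and 8.19 in knockout, against 6.71, 6.63 and 6.66 in wild type 1 to 3. The genes least like Hdac5 were Ccdc153 (r = -0.96), Kctd1 (-0.93) and Errfi1, a feedback inhibitor of the EGF receptor (-0.93). Among them Ccdc153 (-0.75, adjusted p = 0.0237) and Errfi1 (-0.97, adjusted p = 0.00597) fell in the knockout. Of the 2112 genes, 36 had an r above 0.9 to Hdac5, and the median r was 0.00.

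Hdac7 was most alike in pattern to Myb, a transcription factor of immature T cells (r = 0.95), Cnppd1 (0.94), Hdhd5 (0.94), Ypel3 (0.92) and Plcg1, the phospholipase that passes on T cell receptor signals (0.92). None of these 5 passed in the knockout or HDAC7-VP16 comparison by limma (adjusted p from 0.640 to 0.973 and from 0.0796 to 0.441). At an unadjusted p under 0.05, 1 was lower in the knockout, where 2014 of 28921 probe sets passed in either direction. In HDAC7-VP16 thymocytes 3 were higher at that limit, where 5128 of 28921 passed in either direction. Plcg1 was lower in peptide-injected OT-2 than in wild type 1 to 3 thymocytes (-0.72, adjusted p = 0.0298). In that comparison 2.28% of all probe sets were called lower and 3.49% higher. The least alike were Gm6682 (r = -0.90), Gemin6, a member of the SMN complex that assembles splicing particles (-0.88), and Manf, a protein secreted under endoplasmic reticulum stress (-0.87), all 3 higher in peptide-injected OT-2 than in wild type 1 to 3 (0.93, 0.85 and 0.72, adjusted p = 0.0162, 0.0297 and 0.0291). For Hdac7, 13 genes had an r above 0.9, and the median r was 0.08. The nearest 5 depended on the measure: with Spearman's rho 2 of the 5 of Hdac5 and 3 of the 5 of Hdac7 stayed, and over all 21 arrays without subtracting block means 2 and 0 did. Of the 16 genes most or least alike, 12 had promoter windows, 13 in all, and 0 held the MEF2 consensus. It occurred in 3.19% of all promoter windows, and 13 windows are too few to show a difference from that share.

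**Figure D4:**
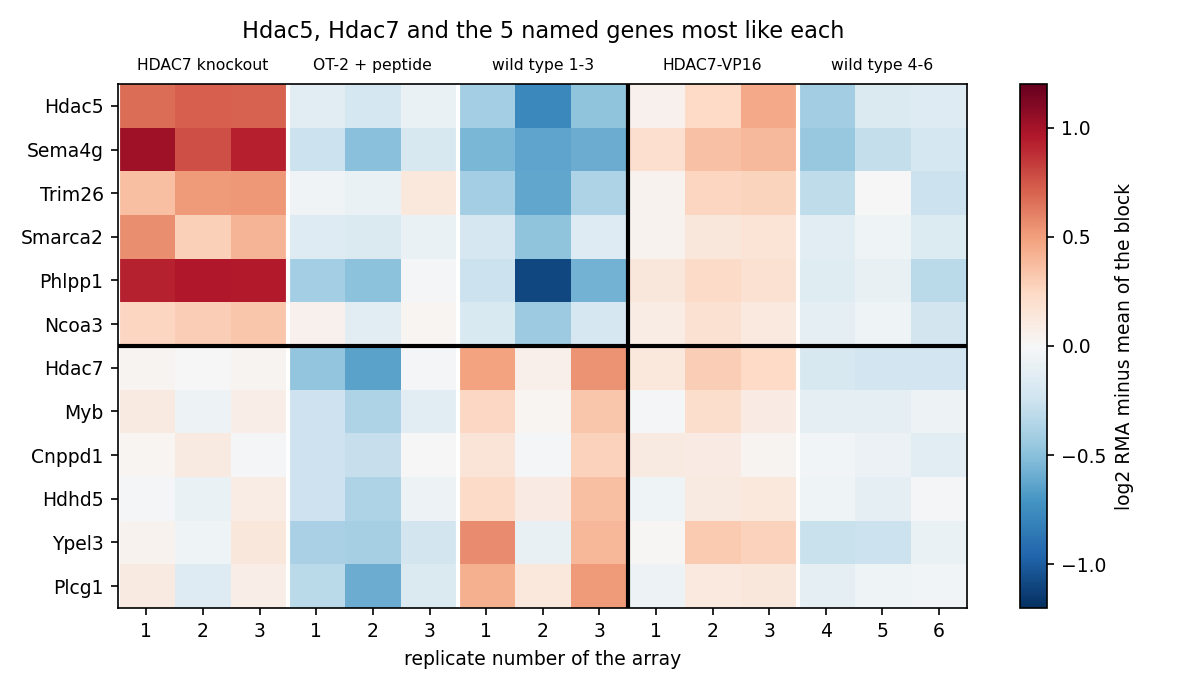
Log2 RMA signal minus the mean of its normalization block on 15 arrays (columns, by group and replicate number) for Hdac5, Hdac7 and the 5 named genes with the highest r to each (rows); red is above and blue below the block mean. The Hdac5 rows are highest in the knockout columns, and the Hdac7 rows lowest on average in the peptide-injected OT-2 columns.

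The partners and regulators of class IIa deacetylases were described next. Of 44 such genes, 12 were named, each a gene the authors listed as changed from these same arrays. Their counts and medians, here and in the next paragraph, are therefore descriptions. Set beside all probe sets, most of them unlisted, they are not independent evidence of direction. In the knockout 2 rose and 1 fell, where 0.439% of all probe sets were called higher and 0.363% lower, with a median change of 0.03 against -0.02 over all probe sets. Camk2d, a calcium/calmodulin-dependent kinase, rose by 0.87 ± 0.15 (adjusted p = 0.0460), Prkcq, the protein kinase C of T cell receptor signalling that lies upstream of protein kinase D, rose by 0.69 ± 0.10 (adjusted p = 0.0160), and Sik1, a kinase known to phosphorylate class IIa deacetylases, fell by 0.59 ± 0.10 (adjusted p = 0.0464; 0.0635 with arrays centred on their medians). Camk2d had 8.61, 8.97 and 8.85 in knockout, against 8.15, 7.69 and 7.99 in wild type 1 to 3, without overlap. In HDAC7-VP16 thymocytes, where 0.692% of all probe sets were called higher, Camk2d was the 1 of 12 that rose (0.44 ± 0.07, adjusted p = 0.0380). With arrays centred, 1 of the 12 fell as well, where 390 of 28921 probe sets were called lower. Mef2a and Mef2d, the 2 MEF2 factors named, had changes of 0.15 and -0.43 in the knockout and of 0.25 and -0.27 in HDAC7-VP16 thymocytes (adjusted p from 0.118 to 0.919).

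In OT-2 thymocytes 4 of the same 12 genes fell, where 1.03% of all probe sets were called lower, with a median of -0.47 against 0.03 over all probe sets. After quantile normalization 3 fell and 1 rose (Camk2d), and after centring 5 fell. Those 4 were Prkd2, the protein kinase D that phosphorylates HDAC7 in T cells (-0.67 ± 0.10, adjusted p = 0.0106), Camk4 (-0.66 ± 0.12, adjusted p = 0.0243), Tbl1xr1, a subunit of the NCoR corepressor complex (-0.49 ± 0.09, adjusted p = 0.0259), and Stk11, the kinase LKB1 that activates Sik1 (-0.49 ± 0.11, adjusted p = 0.0458). Of the 4, only Prkd2 kept its call under quantile normalization, with adjusted p = 0.0612, 0.0743 and 0.114 for Tbl1xr1, Camk4 and Stk11. After peptide, limma called 0 of the 12 relative to OT-2, where 19.5% of all probe sets were called. At an unadjusted p under 0.05, 2 of the 12 were higher, where 10775 of 28921 probe sets passed in either direction. After quantile normalization 1 was called higher. Against wild type 1 to 3, in the same block, 3 fell in peptide-injected OT-2 thymocytes, where 2.28% of all probe sets were called lower. Those 3 were Camk4 (-0.88 ± 0.14, adjusted p = 0.0139), Mef2a (-0.68 ± 0.12, adjusted p = 0.0213) and Tbl1xr1 (-0.51 ± 0.10, adjusted p = 0.0297). With deltaP, where 12.9% of all probe sets were called lower, Camk2d fell by 0.60 ± 0.11 (adjusted p = 0.0137). After centring, 4 others passed as higher, a setting in which most calls over all probe sets were also higher, as given above. Ctbp1, a corepressor, Sfn, a 14-3-3 protein, and Xpo1, the nuclear exporter, did not pass in any of the 7 comparisons as deposited.

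Of 12 genes known as targets of MEF2 or HDAC7, 6 were named. In the knockout 2 fell, where 0.363% of all probe sets were called lower, with a median of -0.47 against -0.02 over all probe sets: Egr1, an immediate early transcription factor (-0.93 ± 0.10, adjusted p = 0.00606), and Nr4a1 (-0.83 ± 0.12, adjusted p = 0.0185). Egr1 was also the 1 of 6 that fell in HDAC7-VP16 thymocytes (-0.87 ± 0.11, adjusted p = 0.0185), where 0.73% of all probe sets were called lower. In OT-2 thymocytes, where 1.03% were called lower, Nr4a1 (-0.83 ± 0.18, adjusted p = 0.0434) and its relative Nr4a3 (-0.92 ± 0.11, adjusted p = 0.00320) fell, the first not passing after centring (-0.89, adjusted p = 0.0628). After peptide both were 3.30 ± 0.12 and 3.89 ± 0.31 higher in peptide-injected OT-2 than in OT-2 thymocytes (adjusted p = 3.00e-04 and 0.00440), with Bcl2l11, the death-promoting protein BIM, and Egr1 the other members that rose (1.87 ± 0.07 and 0.80 ± 0.08). In that comparison 9.35% of all probe sets were called higher. With deltaP, where 12.9% of all probe sets were called lower, 4 of 6 fell: Nr4a1 (-3.36 ± 0.28), Nr4a3 (-2.97 ± 0.35), Myc (-1.39 ± 0.29) and Bcl2l11 (-1.10 ± 0.15), with adjusted p from 0.00284 to 0.0216. These are counts among genes the authors listed from the same arrays, and so not independent evidence of direction. Beside changes of this size, Hdac5 and Hdac7 differed by 0.04 and -0.08 after peptide.

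**Figure D5:**
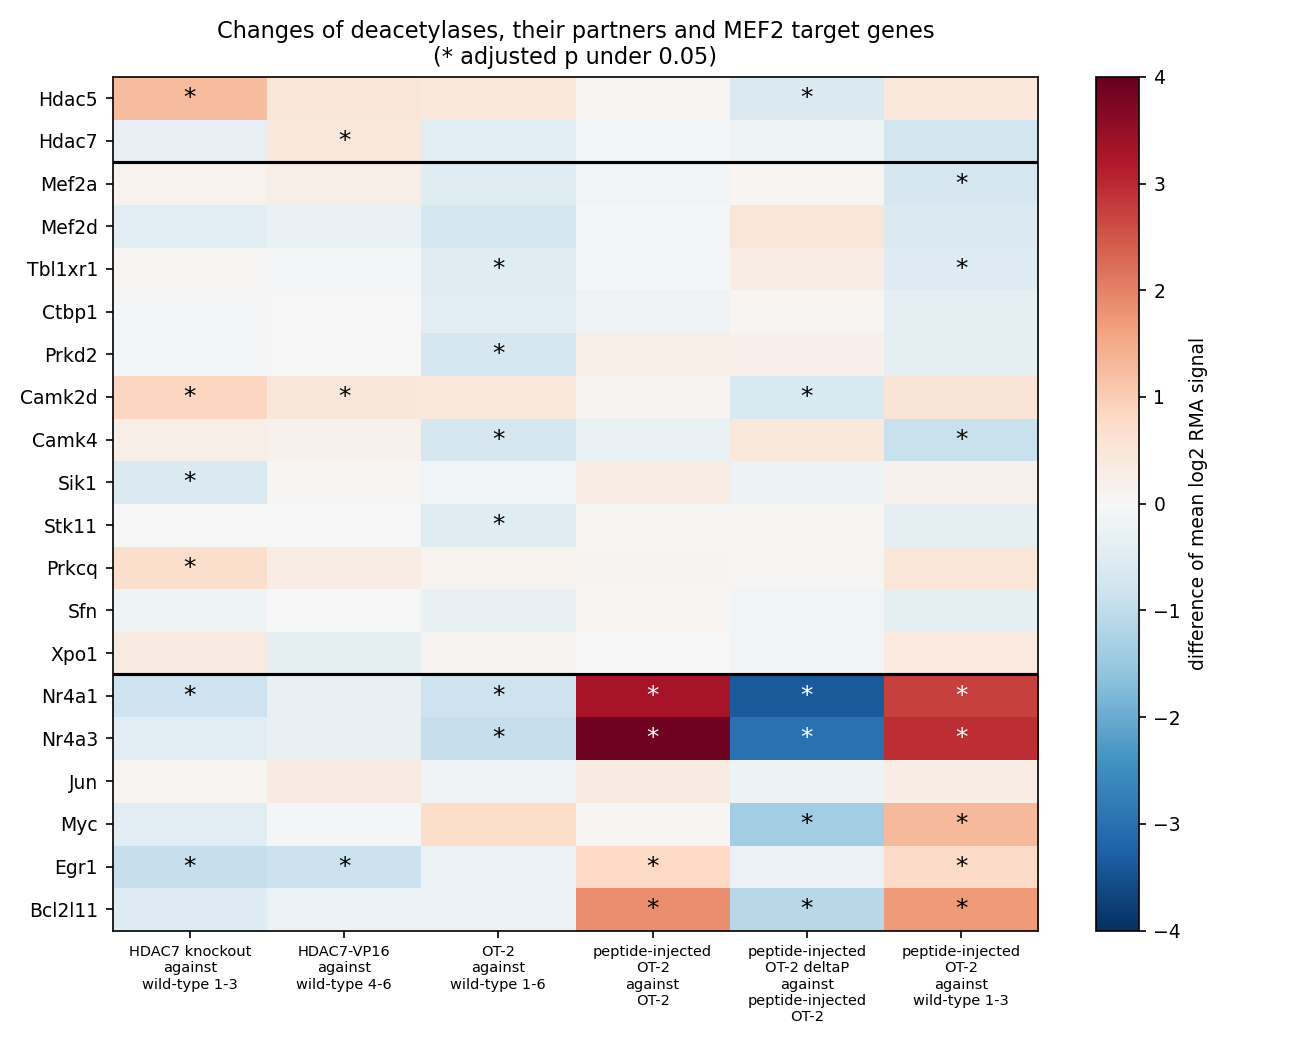
Difference of mean log2 RMA signal (colour) in 6 comparisons (columns) for Hdac5 and Hdac7, 12 named partners and regulators, and 6 named MEF2 or HDAC7 target genes (rows, separated by lines); asterisks mark an adjusted p under 0.05. Hdac5 carries asterisks in the knockout and deltaP columns and Hdac7 in the HDAC7-VP16 column, while the darkest cells are those of Nr4a1 and Nr4a3 in the peptide and deltaP columns.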

How the data were processed

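The values deposited for each probe set are log2 signals that the authors obtained by RMA in Affymetrix Expression Console, per the submitters' processing notes; the design text states normalization in groups that follow the comparisons. In the authors' deposited tables, each fold is a linear ratio with the control below, the score comes from the SAM package according to the readme beside them, and the q value is a percent. Versions and a genome build are not given in the sources.

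Of 35556 rows, 6612 control rows and 23 second probe sets of a gene (those with the lower mean) were left out, and 28921 were tested. No probe annotation was used, so genes were named through the authors' tables and RefSeq: of 2301 table rows, 1922 were named by accession, 116 by symbol, 61 by synonym and 37 by the symbol in the file, while 156 had none and 9 had several. Under R 4.3.3, lmFit and eBayes of limma 3.58.1 tested each comparison on its own arrays alone, with Benjamini-Hochberg adjustment over all 28921 and a threshold of 0.05, after tests on simulated data. The number of arrays limits the precision. Genes named were Hdac5 and Hdac7, the 5 with the highest and the 3 with the lowest r to each, and the named members of the gene lists. The genes and lists were chosen with earlier results of these data known; marker genes named with values are those that passed or that stand alone for their list. Of the markers of mature thymocytes, only Cd69 is reported here. The MEF2 search was added after the promoter was seen. Same-numbered knockout and wild-type arrays deviated together (r = 0.42, 0.26 and 0.25), so their numbers were taken to pair them. Alternatives were quantile normalization, centring, only probe sets above the median, control rows kept, 1 fit over 21 arrays, other control arrays, a replicate block, and leaving out each array. Python 3.11.15 with pandas 2.3.3, numpy 2.4.6, scipy 1.17.1 and matplotlib 3.10.9 was used for tables and figures.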

Additional observations from a re-analysis of the deposited data

Results flagged for a closer look

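The change of Hdac7 differed between the HDAC7-VP16 and the knockout comparison by a test of the difference itself. The difference was 0.78 (HDAC7-VP16 effect minus knockout effect, log2, SE 0.16, adjusted p = 0.0438): Hdac7 was higher on 3 of 3 HDAC7-VP16 arrays than on all of wild type 4 to 6, and lower on 3 of 3 knockout arrays than on all of wild type 1 to 3. Set against the other wild-type set, which lies in another block, the HDAC7-VP16 arrays (11.19 to 11.35) lay within wild type 1 to 3 (11.01 to 11.48), and the knockout arrays (10.94 to 10.98) lay above wild type 4 to 6 (10.83 to 10.87). The call was lost after centring (adjusted p = 0.0539), with control rows kept (0.0895) and in 10 of 12 fits that left out 1 array. Of the 6 other settings that left out no array, 4 kept it (lowest adjusted p = 0.0162). Hdac7 was named through the authors' HDAC7-VP16 list, so the HDAC7-VP16 part of the difference is not independent of that list. For Hdac5 the corresponding difference, -0.76, did not pass (adjusted p = 0.0701). It passed in 4 of the 6 other settings that left out no array, centring among them (adjusted p = 0.0456). In 1 of 12 fits that left out 1 array it passed as well. The flag on Hdac7 alone therefore depends on the setting.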

How the results depend on the processing

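The rise of Hdac5 in the knockout (1.14 to 1.33) and its fall with deltaP (-0.62 to -0.39) passed under all 13 and all 12 alternatives run. None of those 12 could separate deltaP from its normalization block, which holds no other group. The other values did not keep one side of the threshold or were never past it. Left out 1 array at a time, Hdac7 in HDAC7-VP16 ran from 0.40 to 0.48 and Hdac5 from 0.40 to 0.60. The difference of both effects ran from 0.69 to 0.92 for Hdac7 and from -0.86 to -0.64 for Hdac5. Hdac7 ran from -0.26 to 0.051 for peptide against OT-2, from -0.29 to 0.017 for deltaP and from -0.92 to -0.61 for peptide-injected OT-2 against wild type. The within-array difference in HDAC7-VP16 ran from -0.037 to 0.12, and was -0.029 without HDAC7-VP16 replicate 3.

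With 1 fit over all 21 arrays, Hdac5 passed in HDAC7-VP16 (0.50, adjusted p = 0.0169), in the difference of both effects (-0.76, 0.0134), in OT-2 (0.43, 0.00264) and in peptide-injected OT-2 against wild type (0.41, 0.0116), and Hdac7 passed in OT-2 (-0.43, 0.0105) and in the last (-0.74, 7.65e-04) but not in HDAC7-VP16 (0.44, 0.110). Over only probe sets above the median, Hdac5 passed in HDAC7-VP16 (0.50, adjusted p = 0.0333), in the difference (-0.76, 0.0345) and in peptide-injected OT-2 against wild type (0.41, 0.0479), where Hdac7 did too (-0.74, 0.0298). With control rows kept, Hdac7 did not pass in HDAC7-VP16 (0.44, 0.103) or in the difference (0.78, 0.0895). After centring on medians, the difference was -0.83 for Hdac5 (0.0456) and 0.70 for Hdac7 (0.0539), Hdac5 turned to -0.020 for peptide against OT-2 and Hdac7 to 0.033 for deltaP. After quantile normalization, the difference for Hdac5 was -0.85 (0.0258) and Hdac7 turned to 0.10 for peptide against OT-2. With wild type 4 to 6 alone as control, Hdac5 (0.48, 0.00420) and Hdac7 (-0.20, 0.0235) passed in OT-2, as Hdac7 did with wild type 1 to 3 alone (-0.66, 0.0120); with all 6 wild-type arrays, Hdac7 was 0.20 (0.550) in HDAC7-VP16 and -0.11 (0.739), against -0.34, in the knockout. With a replicate block, Hdac7 passed in peptide-injected OT-2 against wild type (-0.74, 0.0241). Fits with all 6 wild-type arrays as control also take in any difference between the blocks of both wild-type sets. The cause of these shifts was not tested.

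Counts of probe sets called moved more. For the knockout (232 as reported), they were 139 with control rows kept, 788 in the fit over 21 arrays and 107 to 155 with 1 array left out. For HDAC7-VP16 (411), they were 1724 above the median, 32 with control rows, 661 in the fit over 21 arrays, 34 with all 6 wild-type arrays and 35 to 790 with 1 array left out. For the difference (231), they were 460, 132, 570, 633 with the block in the knockout pairs and 93 to 399. For OT-2 (667), they were 1452 after quantile normalization, 7850 in the fit over 21 arrays, 7805 and 15256 with wild type 1 to 3 or 4 to 6 alone and 51 to 671. For peptide against OT-2 (5629), they were 3723 after quantile normalization, 3187 above the median, 3328 with the block and 745 to 4651. For deltaP (4348), they were 846, 584, 2801 with the block, 1687 with control rows, 6604 in the fit over 21 arrays and 1091 to 3639. For peptide-injected OT-2 against wild type (1667), they were 1110 with control rows, 4981 in the fit over 21 arrays and 430 to 1381.

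Of the 5 genes nearest to Hdac5, 2 stayed with Spearman's rho and 2 over 21 uncentred arrays; for Hdac7, 3 and 0 did, and r between both genes was 0.20 over 21 uncentred arrays. Same-numbered arrays did not deviate together in the peptide and deltaP comparisons (r from -0.10 to 0.16), so that the block there rests on a shared number only. It changed no call of Hdac5 or Hdac7 beside those given.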
